A study of Mus musculus with 4 samples.

Results

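A set of 43 genes of protein folding and quality control in the endoplasmic reticulum (ER) was compared between stem cells and non-stem cell epithelia of the mouse submandibular gland, a salivary gland. Members were taken by gene symbol, and each was read at the probe with the brightest mean signal over the 4 arrays. It holds 11 chaperones and cochaperones, 13 genes of disulfide bond formation and exchange, 3 prolyl isomerases, 10 genes of ER-associated degradation and 6 genes of the PERK branch of the unfolded protein response. All 43 had a probe among the 36271 gene names on the array, and 42 of the 17332 genes that could be tested were members. Both cell populations were sorted by flow cytometry from C57BL/6 mice aged 8 to 10 weeks and were processed fresh, and the labels name no further treatment or genotype. Each population was measured on 2 one-colour arrays, 4 in all. The surface markers of the sort, the number of animals and any pooling are not stated in the available sources.

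Secreted and membrane proteins enter the ER unfolded, where the Hsp70 protein BiP and its J-domain cochaperones hold them, the lectins calreticulin and calnexin retain glycoproteins, and disulfide isomerases and prolyl isomerases shape the chain. Proteins that do not fold are recognised, passed back through the membrane by the HRD1 complex and degraded in the cytosol. When unfolded protein accumulates, the sensors IRE1, ATF6 and PERK raise chaperones through XBP1 and ATF6 and, through phosphorylation of eIF2 alpha, the transcription factor ATF4. The serous and mucous acinar cells of salivary glands, which make most salivary protein, are textbook examples of cells with an extensive rough ER.

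The 75th percentile of the signal, to which each array was scaled, was 34.0 and 48.6 for stem cells and 84.0 and 71.1 for non-stem cells, and 35.7% to 42.3% of spots were well above background. Every value below is log2 of a probe's signal relative to that percentile, so it can be set against the same probe on another array but not against another probe. Over all genes, arrays of the same group correlated at 0.986 and 0.992 and arrays of different groups at 0.923 to 0.935. All 4 arrays lay on 1 slide and were read in 1 scan. Stem arrays held positions 1 and 2 and non-stem arrays positions 3 and 4, so position and group cannot be told apart. The labels do not say whether replicates are separate animals or separate sorts, so the p-values reflect the spread among these 4 samples, which can be technical only.

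Marker genes of the gland's cell types also differed. Of all genes tested 16.7% were lower in stem cells and 14.4% higher (limma, Benjamini-Hochberg adjusted p under 0.05). Of 13 acinar markers 8 were lower in stem cells and 0 higher by limma, 5 did not pass the threshold, and their summed signal was 7919 and 7433 times the 75th percentile in stem cells against 13690 and 14720. Among them, Cldn10 differed by -3.72 ± 0.15 (stem minus non-stem, log2, ± SE) and Muc19 by -3.88 ± 0.16, and all 13 were well above background on all 4 arrays. Of 8 granular tubule markers 5 were higher and 1 lower (Klk1 3.25 ± 0.16, Klk1b5 2.79 ± 0.15), with summed signals of 1677 and 1676 against 314.4 and 309.5. Of 8 basal duct and myoepithelial markers 4 were higher and 0 lower (Krt17 3.79 ± 0.16, Krt14 3.17 ± 0.16), with summed signals of 185.9 and 189.3 against 76.08 and 80.37. The 4 others did not pass the threshold. Trp63 differed by 0.56 ± 0.17, and the contractile genes Acta2, Cnn1 and Myh11 by -0.10 ± 0.16, -0.36 ± 0.17 and -0.21 ± 0.18. The calls of this list are therefore not shared by its contractile myoepithelial genes. With normexp Krt17 and Krt14 differed by 2.94 and 2.54. Among 4 general epithelial markers Epcam was lower by 2.34-fold (log2 difference -1.22 ± 0.19, limma adjusted p = 0.00798) and Krt18 higher by 1.74-fold (log2 difference 0.80 ± 0.15, limma adjusted p = 0.0141). Krt18 lost its call without non-stem replicate 1 (adjusted p = 0.0744, 0.83) or 2 (0.0987, 0.77) and with normexp background correction (0.134, 0.33), and Epcam without non-stem replicate 2 (0.0702, -1.06). Plasma cells are also rich in ER, and 8 of their 9 marker genes, with B cells, were well above background on no array. The summed signal of the 9 was 1.08 and 0.914 in stem cells against 0.743 and 0.832. It comes largely from probes at background and does not compare the groups. The pan-leukocyte gene Ptprc stayed below that limit on all 4 arrays. The 8 acinar markers called lower were lower on the same arrays as the lower ER genes described below, and their part in those differences was not tested. Muc19 and Smgc, both among the 8, carry the same RefSeq symbol, Smgc, and are not separate genes by that name. In sorted bulk RNA, fewer acinar cells and less RNA per cell cannot be told apart.

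The tested members of this ER set were lower in stem cells with few exceptions. Calls were fewer among other ER factors described further below. Of 23 tested folding factors 6 were lower and 4 higher, and of 25 tested degradation factors 5 were lower and 0 higher. The members and these lists were chosen with earlier results of these data known, so this contrast is no independent result. Of the 42 tested members 38 were lower and 0 higher (limma, Benjamini-Hochberg adjusted p under 0.05), against 16.7% lower and 14.4% higher among all genes tested, and 31 members were lower by at least 2-fold against 9.51%. The 4 that did not pass the threshold were Canx, Ero1l, Ddit3 and Ppp1r15a. Hyou1, Pdia5 and Ero1l passed the filter on dim probes only through the non-stem arrays. The 39 other tested members were well above background on all 4 arrays, and 36 of these were lower and 0 higher, against 14.6% and 14.8% of such genes. By at least 2-fold 6.92% of such genes were lower. In the same 36 both stem arrays lay below both non-stem arrays, against 34.5%. The median log2 difference of the 39 was -1.38, with a range from -3.95 to 0.33, where all 14358 such genes had a median of 0.03 and quartiles of -0.36 and 0.40.

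**Figure D1:**
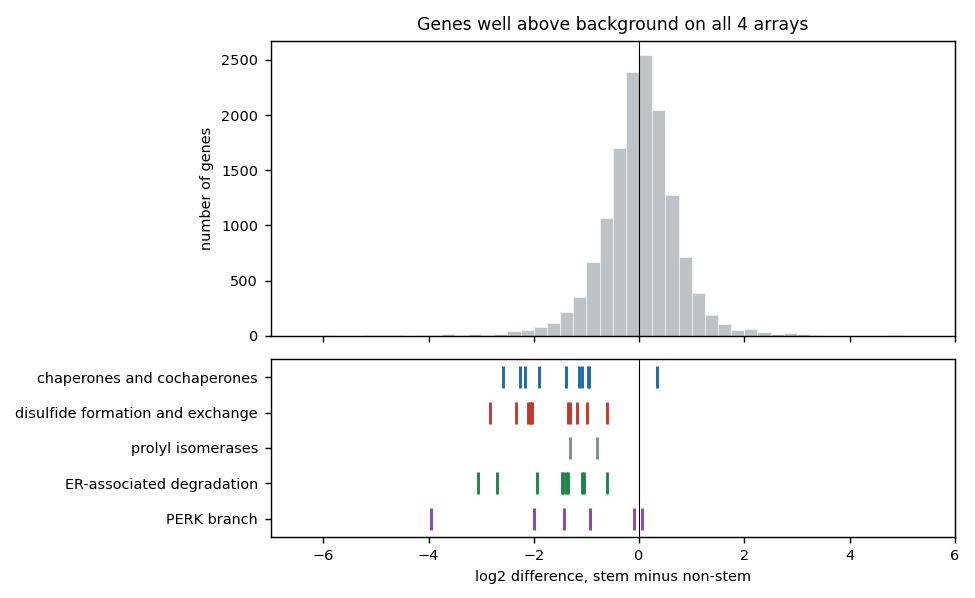
Upper panel: number of genes (y) by log2 difference, stem minus non-stem (x), for the 14358 genes well above background on all 4 arrays. Lower panel: each tick is a member of that set, in rows by role; 37 of the 39 ticks lie left of 0 and the median is -1.38.

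The members called lower numbered 36 after quantile normalization, 35 with the 75th percentile of detected probes, 37 after normexp background correction and 38 with the authors' deposited log2 values. Among all genes the share of calls that were lower was 53.7%, and it moved to 40.6% with the percentile of detected probes and to 70.9% with normexp. The percentile of detected probes shifts every gene by the same amount and moved the median of all genes to 0.13, so the members' median relative to all genes is -1.40 under both percentiles by construction. It was -1.38 after quantile normalization and -1.497 after normexp. With normexp 5 genes called lower under both scalings had differences smaller by more than 1.5-fold: Chac1 (-2.93), Edem2 (-1.68), Ero1lb (-1.65), Pdia5 (-1.58) and Edem3 (-1.14). Without the filter on dim probes 21 members were called lower, and calls among all genes also fell. Those that lost their calls there include Pdia6, Txndc11, Syvn1 and Eif2ak3 (limma adjusted p = 0.0552, 0.0565, 0.0580 and 0.0536), with unchanged differences. With non-stem replicate 1 left out 27 members were lower, and with non-stem replicate 2 left out 26, against 37 and 36 without stem replicates 1 and 2. In such a fit the spread comes from the complete group alone.

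**Figure D2:**
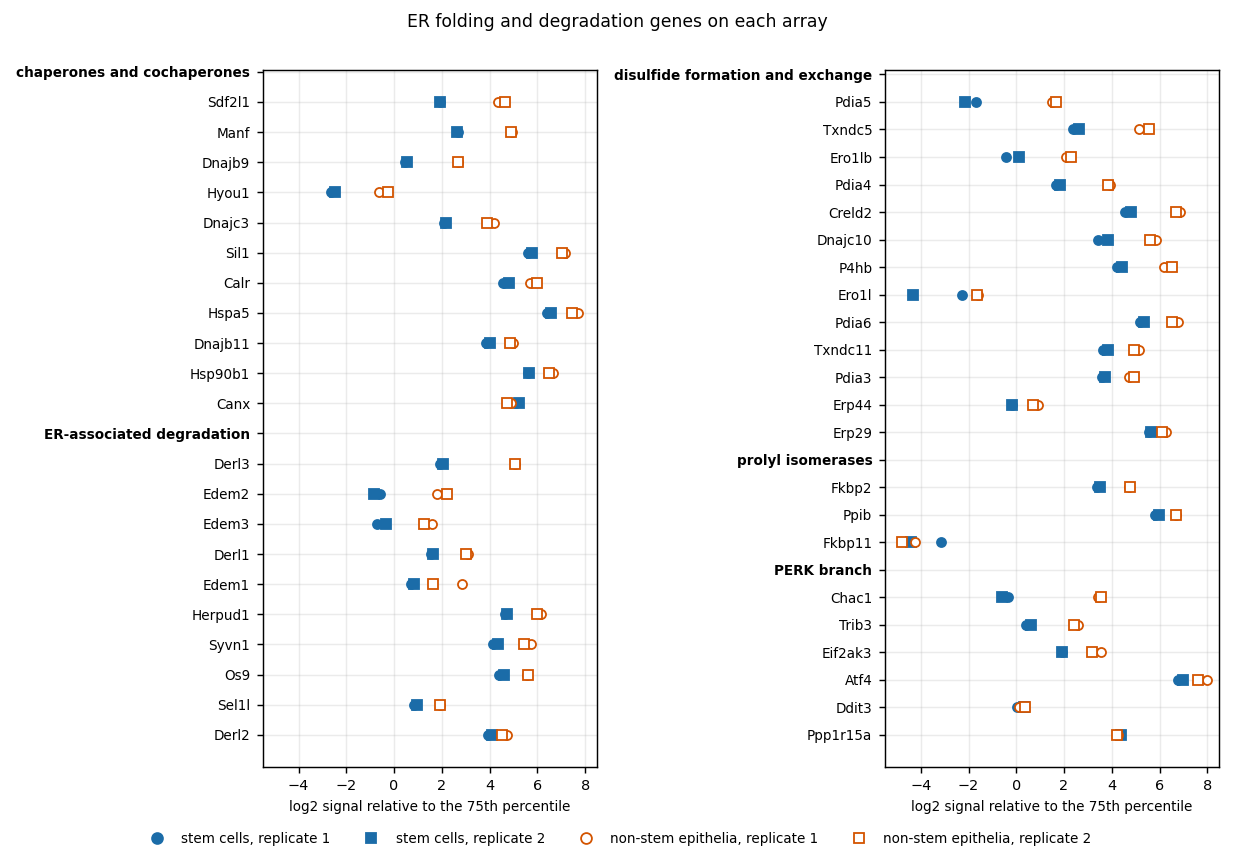
Log2 signal relative to the array's 75th percentile (x) of each of the 43 genes (y), grouped by role. Filled symbols are stem cells and open symbols non-stem epithelia, circles replicate 1 and squares replicate 2; values compare arrays within a row only. Filled symbols lie left of open symbols except for Canx, Fkbp11, Ddit3 and Ppp1r15a.

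Some promoters of this set carry a known control element, shown here because it occurs among the set's chaperones, disulfide genes and degradation genes. The elements read here were chosen as textbook elements of this pathway and the genes as its members, so their shares in the set are no independent result. The ER stress element (ERSE), bound by ATF6 and XBP1 with NF-Y, reads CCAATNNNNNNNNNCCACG. RefSeq promoters on GRCm38.p6, from 250 bases before to 50 after the gene start, were at hand for 38 of the 43 members, and 10 of these (26.3%) held the element on either strand against 0.137% of all 27025 genes (0.119% of promoters). The sites are given below with 12 bases on each side, 5′ to 3′ on the gene's strand, with the element in capitals. Where the element lies on the other strand the capitals open with CGTGG and close with ATTGG.
Hspa5, chr2:34772013-34772055, plus strand: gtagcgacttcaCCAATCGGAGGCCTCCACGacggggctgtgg
Hsp90b1 upstream site, chr10:86705626-86705668, minus strand: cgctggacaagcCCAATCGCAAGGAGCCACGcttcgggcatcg
Hsp90b1 proximal site, chr10:86705521-86705563, minus strand: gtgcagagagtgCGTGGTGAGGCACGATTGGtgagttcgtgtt
Calr, chr8:84847063-84847105, minus strand: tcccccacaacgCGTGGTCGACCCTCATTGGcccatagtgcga
Canx, chr11:50325788-50325830, minus strand: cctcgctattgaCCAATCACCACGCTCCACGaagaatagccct
Dnajc3, chr14:118937815-118937857, plus strand: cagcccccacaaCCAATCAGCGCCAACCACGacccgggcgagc
Pdia6, chr12:17266479-17266521, plus strand: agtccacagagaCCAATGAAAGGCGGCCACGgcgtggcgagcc
Ero1lb, chr13:12565670-12565712, plus strand: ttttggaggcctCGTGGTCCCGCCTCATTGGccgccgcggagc
Creld2, chr15:88819508-88819550, plus strand: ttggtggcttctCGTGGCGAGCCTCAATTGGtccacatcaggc
Derl3, chr10:75893230-75893272, plus strand: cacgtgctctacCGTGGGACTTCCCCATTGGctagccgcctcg
Syvn1, chr19:6046520-6046562, plus strand: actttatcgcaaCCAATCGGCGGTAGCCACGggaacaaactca

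Each of these ERSE sites lies upstream of its gene start, and Hsp90b1, the ER member of the Hsp90 family, holds 2 of them in opposite orientation. The related element ERSE-II, which is ATTGG followed after 1 base of any kind by CCACG, was found in 2 members (5.26% against 0.0444% of genes), Herpud1 and, downstream of the start, Dnajb11. Herpud1 also held the core of an ATF4 composite element, TGATGNAA, which was found in 4 members (10.5% against 4.51%): Herpud1, Chac1, Txndc5 and, downstream of the start, Trib3. On the gene's strand it reads in reverse in the 3 shown here, with the elements in capitals.
Herpud1 ERSE-II, chr8:94386365-94386399, plus strand: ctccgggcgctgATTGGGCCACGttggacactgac
Herpud1 ATF4 core, chr8:94386305-94386336, plus strand: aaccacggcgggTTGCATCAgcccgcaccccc
Chac1 ATF4 core, chr2:119351037-119351068, plus strand: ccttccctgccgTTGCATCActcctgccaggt
Txndc5 ATF4 core, chr13:38528910-38528941, minus strand: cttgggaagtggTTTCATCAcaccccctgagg

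Longer stretches show these elements in place. The 250 bases upstream of Hspa5, the gene of BiP, hold the ERSE, and those upstream of Derl3, a degradation gene with the largest difference of its class, hold it in the other orientation. The stretch upstream of Chac1, the gene with the largest difference of all members, holds the ATF4 core and no ERSE.
Hspa5, chr2:34771840-34772089, plus strand: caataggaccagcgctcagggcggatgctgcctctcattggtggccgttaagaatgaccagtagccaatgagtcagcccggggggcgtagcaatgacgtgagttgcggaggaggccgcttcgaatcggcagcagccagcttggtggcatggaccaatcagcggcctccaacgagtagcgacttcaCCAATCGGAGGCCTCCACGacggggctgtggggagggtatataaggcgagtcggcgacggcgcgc
Derl3, chr10:75893148-75893397, plus strand: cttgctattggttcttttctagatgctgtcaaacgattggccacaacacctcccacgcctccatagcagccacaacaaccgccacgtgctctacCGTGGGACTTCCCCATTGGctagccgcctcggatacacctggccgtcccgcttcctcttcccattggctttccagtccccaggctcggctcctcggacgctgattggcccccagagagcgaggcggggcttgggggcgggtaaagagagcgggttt
Chac1, chr2:119350992-119351241, plus strand: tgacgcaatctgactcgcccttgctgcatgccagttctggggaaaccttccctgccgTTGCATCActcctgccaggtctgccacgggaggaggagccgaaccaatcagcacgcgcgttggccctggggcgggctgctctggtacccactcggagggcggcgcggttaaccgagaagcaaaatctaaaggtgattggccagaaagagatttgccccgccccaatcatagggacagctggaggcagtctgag

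Among the chaperones, 10 of 11 tested were lower in stem cells, 8 of them by at least 2-fold, and Canx did not pass the threshold. Of all genes tested 16.7% were lower, and 9.51% by at least 2-fold. The 10 include Hyou1, which passed the filter on dim probes only through the non-stem arrays. Hspa5 encodes BiP, the ER Hsp70 that binds unfolded chains, and its probe (mm9 chr2:34631913-34631972) measured 6.38 and 6.55 in stem and 7.69 and 7.43 in non-stem cells. The stem arrays were both lower, by 2.13-fold (log2 difference -1.09 ± 0.18, limma adjusted p = 0.00871). Hsp90b1 encodes Grp94, which finishes the folding of selected secreted and membrane proteins, and it measured 5.59 and 5.63 in stem and 6.64 and 6.49 in non-stem cells. It was lower by 1.93-fold (log2 difference -0.95 ± 0.16, limma adjusted p = 0.00917), with no overlap of the groups. Calr encodes calreticulin, the soluble glycoprotein lectin of the ER lumen, and it measured 4.54 and 4.81 in stem and 5.67 and 5.98 in non-stem cells. It too was lower on both stem arrays, by 2.22-fold (log2 difference -1.15 ± 0.19, limma adjusted p = 0.00977).

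Canx encodes calnexin, the membrane-bound lectin that works beside calreticulin. It measured 5.09 and 5.22 in stem and 4.90 and 4.74 in non-stem cells. Both stem arrays lay above both non-stem arrays, which was seen in no other tested member well above background on all 4 arrays, yet the difference of 0.33 ± 0.16 (limma adjusted p = 0.167) did not pass the threshold and its 95% interval ran from -0.06 to 0.73. The share of such genes with the stem arrays on top was 37.7%. The sign depended on the processing: with normexp background correction Canx differed by -0.10, and with an intensity trend and robust prior it was called higher (0.33, adjusted p = 0.0366).

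BiP's cochaperones were lower as well. Sdf2l1, a partner of the J-domain protein ERdj3, measured 1.91 and 1.94 in stem and 4.36 and 4.64 in non-stem cells and was lower by 5.98-fold (log2 difference -2.58 ± 0.17, limma adjusted p = 0.000571). Manf, a secreted ER protein that binds BiP, measured 2.67 and 2.62 in stem and 4.92 and 4.90 in non-stem cells and was lower by 4.81-fold (log2 difference -2.27 ± 0.15, limma adjusted p = 0.000571). For both genes the arrays of a group lay close together and the groups far apart. Dnajb9 encodes the J-domain protein ERdj4, which directs BiP to IRE1 and to degradation substrates, and it measured 0.45 and 0.56 in stem and 2.68 and 2.68 in non-stem cells, a fall of 4.51-fold (log2 difference -2.17 ± 0.15, limma adjusted p = 0.000676). Dnajc3, the J-domain protein p58IPK, measured 2.08 and 2.15 in stem cells against 4.16 and 3.89 in non-stem cells and was lower by 3.76-fold (log2 difference -1.91 ± 0.17, limma adjusted p = 0.00139).

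Sil1, a nucleotide exchange factor of BiP, measured 5.62 and 5.78 in stem and 7.16 and 7.01 in non-stem cells and was lower by 2.61-fold (log2 difference -1.38 ± 0.16, limma adjusted p = 0.00331). Dnajb11, the J-domain protein ERdj3, had the smallest difference of the J-domain members (-0.96 ± 0.16, adjusted p = 0.00959). Hyou1, the large Hsp70-related protein Grp170, was well above background on the non-stem arrays only, at -0.62 and -0.25, so its difference is given as a bound, 2.80-fold lower. A bound sets the bright group's mean against the higher of the dim probe's signal and the lowest signal well above background, and the adjusted p of 0.00141 does not test it. Such a bound holds for this scaling only and leaves out the spread between arrays. With normexp Hyou1 differed by only -0.37 and lost its call (adjusted p = 0.0650). Smaller differences of this class kept their direction but lost their calls when a non-stem array was left out. Calls among all genes also became fewer in these fits, where the spread comes from the stem arrays alone. Without non-stem replicate 1 the adjusted p rose to 0.0646 for Hspa5, 0.0679 for Hsp90b1 and 0.0702 for Dnajb11, with differences of -0.96, -0.88 and -0.91. Without non-stem replicate 2 it was 0.0509, 0.0604 and 0.0674 for these genes (-1.22, -1.03 and -1.02) and 0.0816 for Calr (-0.997).

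The disulfide genes had the lowest class median among members well above background on all 4 arrays, -2.04 over 11 genes, and all 11 were lower. Over all 13 tested, 12 were lower and 10 of these by at least 2-fold, against 16.7% and 9.51% of all genes tested. P4hb encodes protein disulfide isomerase, the class's best known enzyme and also a subunit of collagen prolyl 4-hydroxylase, and it measured 4.23 and 4.40 in stem and 6.20 and 6.51 in non-stem cells. Stem cells were lower by 4.11-fold (log2 difference -2.04 ± 0.18, limma adjusted p = 0.00139). Txndc5, a thioredoxin-domain isomerase also called ERp46, measured 2.38 and 2.64 in stem and 5.15 and 5.55 in non-stem cells, lower by 7.14-fold (log2 difference -2.84 ± 0.21, limma adjusted p = 0.000722). Pdia4, the isomerase ERp72, measured 1.67 and 1.84 in stem and 3.92 and 3.82 in non-stem cells, lower by 4.33-fold (log2 difference -2.11 ± 0.16, limma adjusted p = 0.000821). None of these 3 genes had overlapping groups.

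Oxidation of the isomerases is the task of the Ero1 oxidases, and their probes differed in how well they could be measured. Ero1lb, now named Ero1b, is the form known from secretory tissues, and it measured -0.43 and 0.13 in stem and 2.09 and 2.30 in non-stem cells. It was lower by 5.08-fold (log2 difference -2.34 ± 0.23, limma adjusted p = 0.00188). Ero1l, now Ero1a, measured -2.28 and -4.34 in stem and -1.61 and -1.66 in non-stem cells and was well above background on the non-stem arrays only. The stem arrays lay far apart, and the difference of -1.68 ± 0.63, adjusted p = 0.0974 did not pass the threshold, with a bound of 1.22-fold lower. It was called without stem replicate 1 (-2.71), under the replicate block (adjusted p = 0.00538) and with an intensity trend and robust prior (0.00178), and normexp turned it to 0.012. Without stem replicate 2 it was -0.65. Pdia5 was likewise above background on the non-stem arrays only, at 1.49 and 1.67. Its bound, which holds for this scaling only, was 11.3-fold lower in stem cells (limma adjusted p = 0.000435, which does not test the bound). With normexp its log2 difference was -1.58, smaller than this bound.

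Dnajc10 encodes ERdj5, a reductase that opens disulfides of proteins bound for degradation, and it measured 3.42 and 3.86 in stem and 5.83 and 5.58 in non-stem cells. It was lower by 4.20-fold (log2 difference -2.07 ± 0.21, limma adjusted p = 0.00208), with the groups apart. Creld2, an ER protein with EGF-like repeats, measured 4.56 and 4.82 in stem and 6.85 and 6.68 in non-stem cells and was lower by 4.21-fold (log2 difference -2.07 ± 0.18, limma adjusted p = 0.00115). Its promoter is among those with an ERSE above. Pdia6 (-1.36 ± 0.18, adjusted p = 0.00459), Txndc11 (-1.32 ± 0.17, adjusted p = 0.00466) and Pdia3 (-1.18 ± 0.17, adjusted p = 0.00597), which serves the lectin-bound glycoproteins, had differences between -1.36 and -1.18.

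Erp44 and Erp29 had the smallest differences of the class. Erp44, which retrieves Ero1 and other clients from the early secretory pathway, measured -0.20 and -0.20 in stem and 0.90 and 0.69 in non-stem cells (-0.996 ± 0.16, adjusted p = 0.00899). Erp29, which lacks the active-site cysteines of its family, measured 5.54 and 5.64 in stem and 6.26 and 6.12 in non-stem cells (-0.60 ± 0.16, adjusted p = 0.0373). The groups did not overlap, but the call was lost without any 1 of the arrays, where the difference ran from -0.68 to -0.53 and the adjusted p from 0.0731 to 0.162, under the replicate block (0.0684) and with the percentile of detected probes (0.0502, -0.47). The mean of its probes gave -1.39 and an adjusted p of 0.0652. A second probe for Erp29 measured -0.57 and -0.74 in stem cells against 2.80 and 0.24, so the probes differ in size and the non-stem arrays differ from each other there. Without non-stem replicate 2 Pdia3 (adjusted p = 0.0608, -1.07) and Erp44 (0.0545, -1.10) also lost their calls, and Erp44 without non-stem replicate 1 (0.0657, -0.89).

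**Figure D3:**
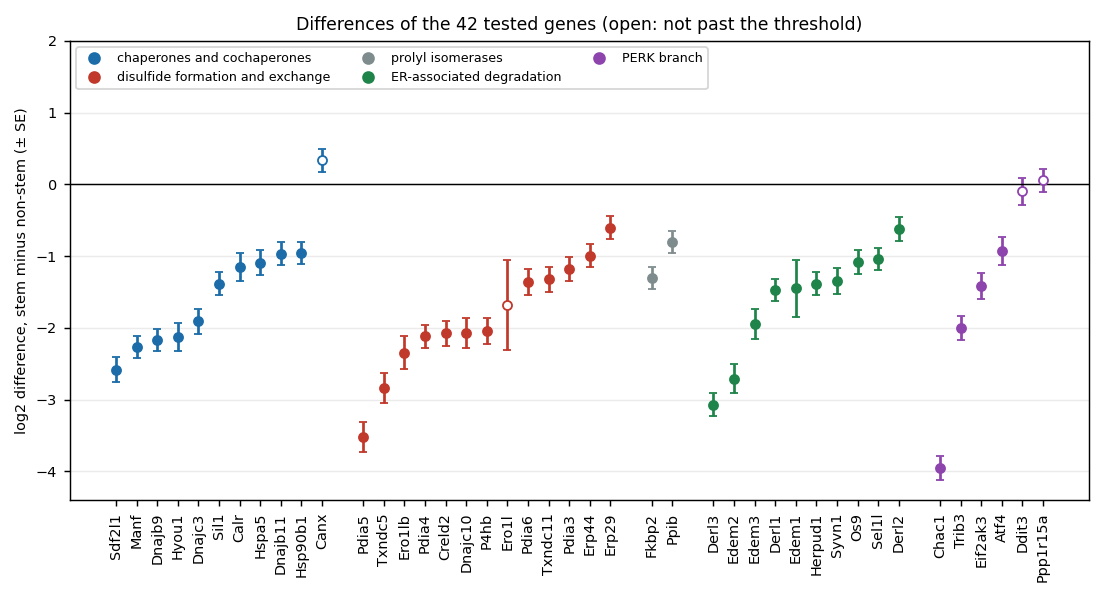
Log2 difference, stem minus non-stem (y, point ± SE from the limma fit, 2 arrays per group), of the 42 tested genes (x), coloured by role and ordered within each role. Filled points passed the adjusted p threshold of 0.05; the open points are Canx, Ero1l, Ddit3 and Ppp1r15a, and Chac1 is the lowest at -3.95. Hyou1, Pdia5 and Ero1l were above background on the non-stem arrays only.

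Prolyl isomerases turn the peptide bond before proline, a slow step of folding. Ppib, cyclophilin B, measured 5.80 and 5.96 in stem and 6.70 and 6.66 in non-stem cells and was lower by 1.74-fold (log2 difference -0.80 ± 0.16, limma adjusted p = 0.0156). Fkbp2 measured 3.37 and 3.50 in stem and 4.72 and 4.76 in non-stem cells and was lower by 2.48-fold (log2 difference -1.31 ± 0.15, limma adjusted p = 0.00331). In both genes the stem arrays were below the non-stem arrays, though Ppib lost its call without non-stem replicate 1 (adjusted p = 0.0896, -0.78) or 2 (0.0964, -0.82). Fkbp11 was well above background on 0 of the 4 arrays, at -3.14 and -4.41 against -4.25 and -4.79, and was not tested.

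All 10 genes of ER-associated degradation were lower in stem cells, 9 by at least 2-fold, with a median of -1.42. The shares of all genes tested were 16.7% lower and 9.51% lower by at least 2-fold. Derlins are membrane proteins of the channel through which misfolded proteins leave the ER, and the 3 family members differed by unlike amounts. Derl3 (probe at mm9 chr10:75358503-75358562) measured 1.91 and 2.05 in stem and 5.05 and 5.04 in non-stem cells. Derl1 measured 1.54 and 1.64 in stem and 3.095 and 3.02 in non-stem cells. Derl2 measured 3.94 and 4.09 in stem and 4.74 and 4.52 in non-stem cells. Derl3 was lower by 8.39-fold (log2 difference -3.07 ± 0.15, limma adjusted p = 0.000276), Derl1 by 2.78-fold (log2 difference -1.47 ± 0.15, limma adjusted p = 0.00221) and Derl2 by 1.53-fold (log2 difference -0.62 ± 0.17, limma adjusted p = 0.0417), each with the groups apart. The call of Derl2 was lost without any 1 array (adjusted p from 0.0530 to 0.179, difference from -0.73 to -0.51), under the replicate block (0.0660), with quantile normalization (0.0509) and with the percentile of detected probes (0.0546). Its other probes were also lower in stem cells, with differences of -0.34 and -1.37, as was the second probe of Derl1 (-0.65).

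EDEM proteins trim or recognise the mannose chains that mark a glycoprotein for disposal. Edem2 measured -0.59 and -0.84 in stem and 1.78 and 2.19 in non-stem cells and was lower by 6.52-fold (log2 difference -2.71 ± 0.21, limma adjusted p = 0.000843). Edem3 measured -0.73 and -0.35 in stem and 1.58 and 1.23 in non-stem cells and was lower by 3.85-fold (log2 difference -1.95 ± 0.21, limma adjusted p = 0.00262). Edem1 measured 0.73 and 0.82 in stem and 2.83 and 1.61 in non-stem cells, with the non-stem arrays far apart, and was lower by 2.73-fold (log2 difference -1.45 ± 0.40, limma adjusted p = 0.0420). Without non-stem replicate 1 its difference was -0.84 and the adjusted p 0.0756, with quantile normalization 0.0721 with the percentile of detected probes 0.0711 and under a crossed replicate block 0.0647. Without non-stem replicate 2 its difference was -2.06. Edem2 and Edem3 kept their calls under each of these settings.

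The ligase complex itself was lower too. Syvn1 encodes HRD1, the ubiquitin ligase of the pathway, and it measured 4.14 and 4.34 in stem and 5.74 and 5.45 in non-stem cells, lower by 2.55-fold (log2 difference -1.35 ± 0.18, limma adjusted p = 0.00514). Sel1l, the adaptor that holds HRD1 to its substrates, differed by -1.05 ± 0.15, adjusted p = 0.00634, and Os9, the lectin that brings them, by -1.08 ± 0.16, adjusted p = 0.00712. Herpud1, a membrane protein of the complex with the ERSE-II and ATF4 core shown above, measured 4.64 and 4.72 in stem and 6.14 and 5.98 in non-stem cells and was lower by 2.61-fold (log2 difference -1.38 ± 0.16, limma adjusted p = 0.00301). The groups of all 4 genes were apart. Sel1l and Os9 lost their calls without non-stem replicate 1 (adjusted p = 0.0530 and 0.0559, differences of -1.05 and -1.10) and without non-stem replicate 2 (0.0614 and 0.0677, -1.04 and -1.06).

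The PERK branch split. Of its 6 genes 4 were lower, 3 by at least 2-fold, and 2 did not pass the threshold. Among all genes tested 16.7% were lower, and 9.51% by at least 2-fold. Eif2ak3 encodes PERK, the kinase that senses unfolded protein, and it measured 1.93 and 1.93 in stem and 3.53 and 3.16 in non-stem cells, lower by 2.67-fold (log2 difference -1.42 ± 0.18, limma adjusted p = 0.00458). Atf4, the transcription factor whose translation PERK raises, measured 6.76 and 6.98 in stem and 7.96 and 7.62 in non-stem cells, lower by 1.90-fold (log2 difference -0.93 ± 0.19, limma adjusted p = 0.0187). The call of Atf4 was lost without non-stem replicate 1 (adjusted p = 0.104, -0.76) or 2 (0.0646, -1.10).

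Targets of ATF4 went different ways. Chac1, an enzyme that degrades glutathione (probe at mm9 chr2:119179990-119180049), measured -0.36 and -0.61 in stem and 3.40 and 3.54 in non-stem cells. It was lower by 15.5-fold (log2 difference -3.95 ± 0.17, limma adjusted p = 0.000208), and 0.548% of all tested genes had a lower difference. Trib3, a pseudokinase that restrains ATF4 and Akt, measured 0.40 and 0.60 in stem and 2.58 and 2.42 in non-stem cells and was lower by 3.99-fold (log2 difference -1.998 ± 0.17, limma adjusted p = 0.00112). In both genes the groups were far apart. Ddit3 encodes CHOP, the factor tied to death under prolonged ER stress, and it measured 0.01 and 0.31 in stem and 0.13 and 0.38 in non-stem cells. Ppp1r15a encodes GADD34, which brings phosphatase to eIF2 alpha, and it measured 4.21 and 4.36 in stem and 4.27 and 4.20 in non-stem cells. Both genes had overlapping groups, with differences of -0.09 ± 0.19 (limma adjusted p = 0.728, 95% interval -0.57 to 0.38) and 0.05 ± 0.16 (adjusted p = 0.814, -0.34 to 0.44). With normexp Ppp1r15a differed by -0.42, and its adjusted p was 0.0660.

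For 9 members the array held further probes, 10 besides the brightest. Of these 10 probes 9 were well above background on at least 2 arrays, and all 9 were lower in stem cells. The second probe of Atf4 gave 0.35 and 0.34 in stem cells against 1.55 and 1.95, that of Dnajb9 -1.04 and -1.46 against 0.60 and 0.31, and that of Pdia6 0.36 and -0.12 against 1.501 and 1.41. The groups did not overlap at any of these 3.

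Genes of the wider pathway were read from 4 further lists. Of 13 sensors and transcription factors of the unfolded protein response 11 were tested, and 7 of these were lower and 0 higher. The background over all genes tested was 16.7% lower and 14.4% higher. Xbp1, the factor that IRE1 splices into its active form, measured 6.07 and 6.18 in stem and 8.37 and 8.26 in non-stem cells and was lower by 4.56-fold (log2 difference -2.19 ± 0.16, limma adjusted p = 0.000709). Ern1, the gene of IRE1 alpha, measured 0.26 and 0.72 in stem and 0.86 and 0.64 in non-stem cells, with overlapping groups and a difference of -0.26 ± 0.21 (adjusted p = 0.382). Atf6 differed by -0.64 ± 0.17, adjusted p = 0.0411, a call lost without any 1 array (adjusted p from 0.0564 to 0.200, difference from -0.79 to -0.50) under the replicate block (0.0532) and the crossed block (0.0698), with the percentile of detected probes (0.0807, -0.51) and with normexp (0.0509, -0.39).

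Secretory transcription factors had the largest differences in that list. Creb3l1, a membrane-bound factor of secretory cells, measured 3.37 and 3.30 in stem and 7.002 and 7.24 in non-stem cells and was lower by 13.8-fold (log2 difference -3.78 ± 0.17, limma adjusted p = 0.000208). Its relative Creb3l4 was lower by 6.94-fold (log2 difference -2.80 ± 0.16, limma adjusted p = 0.000376). Bhlha15, also called Mist1, the factor of mature exocrine acinar cells, measured 2.63 and 2.74 in stem and 5.02 and 4.96 in non-stem cells and was lower by 4.96-fold (log2 difference -2.31 ± 0.15, limma adjusted p = 0.000582). The stem arrays of all 3 lay far below the non-stem arrays.

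Among 24 eIF2 kinases and ATF4 targets 22 were tested, of which 13 were lower and 2 higher. The background was again 16.7% lower and 14.4% higher. Asns, asparagine synthetase, was lower by 5.59-fold (log2 difference -2.48 ± 0.16, limma adjusted p = 0.000555), Psat1 of serine synthesis by 3.97-fold (log2 difference -1.99 ± 0.15, limma adjusted p = 0.000858) and the transcription factor Atf5 by 4.01-fold (log2 difference -2.002 ± 0.18, limma adjusted p = 0.00144). With the mean of its probes Psat1 differed by -2.81. The 2 that were higher were Atf3, a stress-induced transcription factor, at 5.72 and 5.92 in stem cells against 4.55 and 4.70, and Ddit4, an inhibitor of mTORC1 signalling, at 4.35 and 4.40 in stem cells against 3.31 and 3.21. Their differences were 1.20 ± 0.17, adjusted p = 0.00565 and 1.11 ± 0.15, adjusted p = 0.00536. Leaving out non-stem replicate 2 ended both calls (adjusted p = 0.0502 and 0.0581, 1.27 and 1.06), and leaving out replicate 1 that of Atf3 (0.0529, 1.12).

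The other ER folding factors held genes of both directions. Of 28 such factors 23 were tested, of which 6 were lower and 4 higher, and of 27 other degradation factors 25 were tested, of which 5 were lower and 0 higher, where the background was 16.7% lower and 14.4% higher. The other degradation factors still leaned lower, with a median log2 difference of -0.42. Of the 24 well above background on all 4 arrays, 17 had both stem arrays below both non-stem arrays and 1 had them above. The shares of all such genes were 34.5% and 37.7%. Qsox1, a sulfhydryl oxidase of the late secretory pathway, was lower by 10.2-fold (log2 difference -3.35 ± 0.17, limma adjusted p = 0.000272). Uggt1, which re-glucosylates misfolded glycoproteins, differed by -1.25 ± 0.19, adjusted p = 0.00678 and the J-domain gene Dnajc1 by -1.11 ± 0.17, adjusted p = 0.00745. Among degradation factors, Vimp (now Selenos), a membrane partner of the derlins, differed by -1.83 ± 0.16, adjusted p = 0.00125, the ubiquitin ligase gene Rnf5 by -1.54 ± 0.21, adjusted p = 0.00533 and Tmem129 by -0.98 ± 0.16, adjusted p = 0.00906. Without non-stem replicate 1 the calls of Uggt1 (-1.13, adjusted p = 0.0590), Dnajc1 (-1.06, 0.0620) and Tmem129 (-1.01, 0.0597) were lost, and without replicate 2 those of Dnajc1 (-1.15, 0.0634), Rnf5 (-1.33, 0.0531) and Tmem129 (-0.94, 0.0787).

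Collagen chaperones were among the genes that were higher in stem cells. Serpinh1 encodes Hsp47, the collagen chaperone, and it measured 4.58 and 4.73 in stem and 2.95 and 2.82 in non-stem cells, higher by 3.41-fold (log2 difference 1.77 ± 0.16, limma adjusted p = 0.00139). Fkbp10, a prolyl isomerase that also serves collagen, measured 0.99 and 0.94 in stem and -0.54 and -0.84 in non-stem cells, higher by 3.14-fold (log2 difference 1.65 ± 0.17, limma adjusted p = 0.00232). Ppic, cyclophilin C, measured 2.82 and 3.13 in stem and -0.62 and -1.01 in non-stem cells and was higher by 13.8-fold (log2 difference 3.79 ± 0.21, limma adjusted p = 0.000350). In these 3 genes every stem array lay above every non-stem array, and with normexp the differences of Fkbp10 and Ppic were 0.85 and 2.32.

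**Figure D4:**
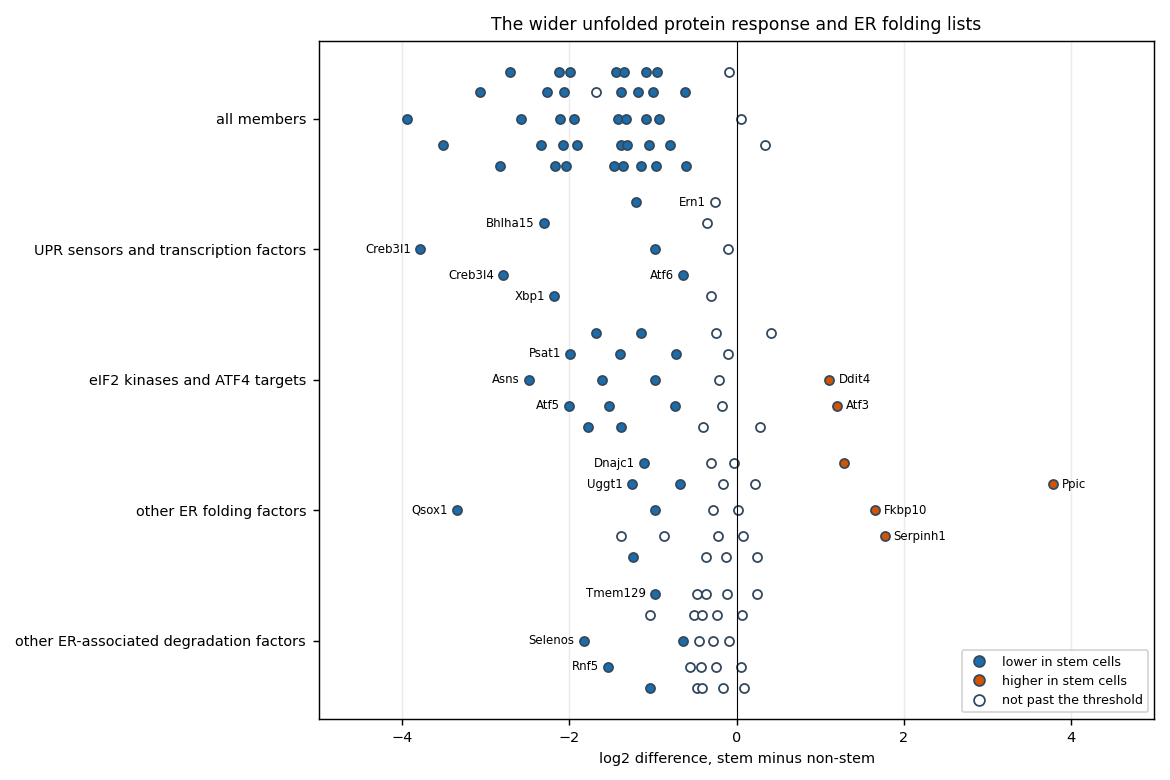
Log2 difference, stem minus non-stem (x), of tested genes of the member set and of 4 further lists (rows; vertical scatter within a row has no meaning). Blue points were lower, orange points higher and open points not past the threshold; the named genes include Creb3l1 at -3.78, Qsox1 at -3.35 and Ppic at 3.79.

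The promoter elements and the expression differences were set side by side as a description. Of the 10 tested members with an ERSE 9 were lower, with a median difference of -1.36 and a range from -3.07 in Derl3 to 0.33 in Canx. Of the 27 tested members whose promoter window held none, 24 were lower, with a median of -1.42 and a range from -3.95 to 0.05. Outside the set 27 genes held an ERSE, of which 8 were tested, 3 were lower and 1 was higher. Among all genes tested 16.7% were lower and 14.4% higher. The shorter core CCACG, which is nested in both ERSE forms, occurred in 33 of the 38 member genes (86.8%) against 35.5% of all genes. The UPR element TGACGTGG, which holds the same core on its other strand, occurred in 2 members (5.26% against 0.714%), Txndc5 and Txndc11. A match describes letters in this window and not binding, and the absence of a match says nothing of sites elsewhere.

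**Figure D5:**
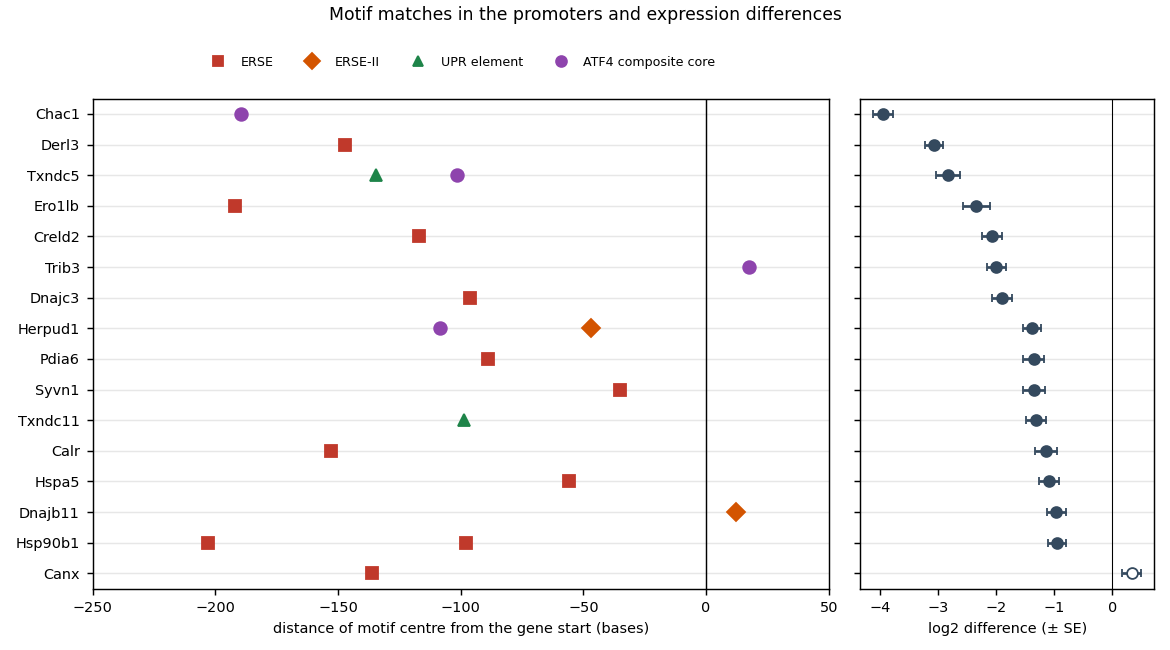
Left: distance of the centre of each motif match from the gene start in bases (x) for the 16 members with an ERSE, ERSE-II, UPR element or ATF4 composite core (y), ordered by expression difference; the matches of Txndc5 belong to different starts of that gene. Right: log2 difference, stem minus non-stem, ± SE (open: not past the threshold), from -3.95 in Chac1 to 0.33 in Canx.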

How the data were processed

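RNA of sorted cells was amplified, labelled with Cy3 from 0.5 ug and hybridised to 4 one-colour arrays, 2 per group, per the labels' protocols. Values came as linear spot intensity in the deposited scanner output, written by Agilent Feature Extraction 10.7.3.1 on a design with mm9 coordinates per the file headers, or version 9.1 per the submitters' processing notes. The deposited series table holds the authors' log2 values, whose per-probe centring is unknown; differences between its columns correlated at 1 with the scanner values, which settles scale and direction, and its column medians were -0.27, -0.55, -0.83 and -0.75 (stem 1 and 2, non-stem 1 and 2). Precision is limited by the number of arrays.

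Here, control spots and outlier spots were left out, log2 of the background-corrected signal was shifted by each array's 75th percentile, spots of a probe were averaged, and a gene was represented by its brightest probe. RefSeq accessions (GRCm38.p6) named 26680 of 55681 probes and the array's names served for 29001; for all 53 member probes both gave the same gene. Genes well above background on at least 2 of 4 arrays, 17332 in all, were tested with the limma package 3.58.1 under R 4.3.3 (eBayes after lmFit; two-sided p, Benjamini-Hochberg over all of them, threshold 0.05), on 5.60 degrees of freedom. It was tested on simulated data.

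The members and all gene lists were chosen with earlier results of these data known. Genes named are the 43 members, 5 transcription factor and sensor genes, up to 3 called rises and 3 called falls of smallest p from each wider list, and the 2 tested genes of smallest p of each marker list. The basal duct and myoepithelial markers that were not called, and the genes in the closing observations, were chosen after their values were seen. Same-numbered arrays deviated with a correlation of -0.10, so the replicate numbers were not taken as pairs. Alternatives were quantile normalization, a percentile over detected probes, the deposited log2 values, normexp (offset 50), other filters and priors, a replicate block, mean probes, leaving out each array and a minimum of 2-fold. Promoter sequences are RefSeq's. Residues at protein ends were not analysed here.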

Additional observations from a re-analysis of the deposited data

Results flagged for a closer look

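Control transcripts added to the labelling, which no comparison above uses, differed between the groups. After the 75th percentile shift all 10 spike-in transcripts were higher on both stem arrays than on both non-stem arrays, with a median log2 difference of 2.25 and a range from 0.645 to 2.53. The 0.645 came from a control at -3.63 and -4.12 in stem and -4.54 and -4.51 in non-stem cells. Gene probes at background had values as low, so this control does not measure the offset. The signal's 75th percentile was itself lower on the stem arrays, at 34.0 and 48.6 against 84.0 and 71.1. The members' differences are therefore relative to the other genes of each array and not to the added controls, and the part of this offset in them was not tested.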

How the results depend on the processing

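The number of members called lower was 38 and ranged from 35 to 39 under the scalings, priors, blocks and probe means tried, and from 26 to 37 when an array was left out. Without the filter on dim probes it was 21 with 36271 genes tested, the cause was not tested, and the counts by role fell to 6 chaperones, 7 disulfide genes, 1 prolyl isomerase, 5 degradation genes and 2 PERK branch genes. The prolyl isomerases' median was then -0.80 with Fkbp11 included. All genes then had 850 higher and 757 lower calls, and the wider lists 4 (sensors and factors), 7 (ATF4 targets, with 0 higher), 1 (other folding) and 1 (other degradation) lower. A 2-fold minimum left 1234 higher and 1649 lower genes in all, 1 prolyl isomerase and 3 other degradation factors. Normexp gave 4500 lower and 1845 higher genes and 17 other degradation factors lower, and class medians of -1.55 (chaperones), -1.66 (disulfide), -1.45 (prolyl isomerases) and -1.46 (PERK branch). With the percentile of detected probes the medians were -1.25 (chaperones), -0.92 (prolyl isomerases), -1.28 (degradation) and -1.04 (PERK branch). The filter on all 4 arrays gave a chaperone median of -1.27 and 8 other degradation factors lower, and the mean of a gene's probes medians of -1.82 (disulfide) and -1.29 (PERK branch). An intensity trend with a robust prior called 14 other degradation factors lower and 1 member, the chaperone Canx, higher, and it called Ero1l lower.

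Leaving out 1 array gave 676 to 2533 higher and 878 to 3123 lower genes in all, 6 to 10 chaperones, 1 to 2 prolyl isomerases, 6 to 9 degradation genes, 4 to 6 sensors and factors, 7 to 12 ATF4 targets lower and 0 to 2 higher, 2 to 8 other folding factors and 1 to 5 other degradation factors lower. The degradation median ran from -1.50 to -1.25 and the PERK branch median from -1.35 to -0.995. The lowest counts came without 1 of the non-stem arrays, where the spread is taken from the stem arrays.

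The sign turned in genes that did not pass the threshold. Normexp gave -0.10 for Canx, 0.012 for Ero1l and -0.42 for Ppp1r15a, the percentile of detected probes 0.039 for Ddit3 and quantile normalization -0.052 for Cd79a. With an array left out Ddit3 ran from -0.24 to 0.055, Ppp1r15a from -0.019 to 0.13 and Cd79a from -0.23 to 0.45. The cause was not tested for any of these.

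With the replicate number as a block 37 members were lower, and 2942 genes were lower and 2409 higher in all. Erp29 (adjusted p = 0.0684), Derl2 (0.0660) and Atf6 (0.0532) lost their calls and Ero1l gained one; the block changed no other call among the named genes. A crossed pairing, added after the data were seen, gave 37 members lower, with Edem1 and, outside the set, Atf6 losing their calls, and 2330 genes lower and 2027 higher in all. Signal over background limits Hyou1, Pdia5 and Ero1l, which have only bounds, and Fkbp11, which was not measured.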

Other observations

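Further genes of the list of eIF2 kinases and ATF4 targets are given here. They were picked after their values were seen and because they were lower, so they describe no theme of that list, of which 13 of 22 tested genes were lower against 16.7% of all genes. Nars, an aminoacyl-tRNA synthetase, measured 2.04 and 1.85 in stem and 3.38 and 3.55 in non-stem cells and differed by -1.52 ± 0.17 (limma adjusted p = 0.00259). Aars differed by -1.38 ± 0.15, adjusted p = 0.00277, Sars by -0.97 ± 0.17, adjusted p = 0.0109 and Gars by -0.73 ± 0.18, adjusted p = 0.0296, which are further synthetases. Slc7a11, an amino acid transporter gene of the list, was below the filter on dim probes and was not tested. Phgdh, which opens serine synthesis, differed by -1.15 ± 0.18, adjusted p = 0.00819, Mthfd2 of mitochondrial folate metabolism by -1.78 ± 0.29, adjusted p = 0.00876 and Cth of cysteine synthesis by -1.40 ± 0.17, adjusted p = 0.00336. Leaving out non-stem replicate 1 ended the calls of Gars (-0.58, adjusted p = 0.141), Sars (-1.02, 0.0636) and Mthfd2 (-1.81, 0.0683), leaving out non-stem replicate 2 those of Gars (-0.87, 0.0841), Sars (-0.92, 0.0896), Mthfd2 (-1.74, 0.0849) and Phgdh (-0.996, 0.0703), and leaving out stem replicate 1 that of Gars (-0.67, 0.0689).

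The cytosolic machinery that pulls proteins out of the ER did not pass the threshold. Vcp, the ATPase of this step, measured 6.07 and 6.19 in stem and 6.48 and 6.35 in non-stem cells (-0.29 ± 0.16, adjusted p = 0.216). Its cofactors Ufd1l and Nploc4 differed by -0.42 ± 0.17, adjusted p = 0.111 and -0.36 ± 0.19, adjusted p = 0.194. The stem arrays were below the non-stem arrays for all 3 genes, as they were for 36% of all genes tested, and none was called with any 1 array left out.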
